A study of Mus musculus with 2 samples.

Results

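The accessible regions described here lay away from promoters and had their summit inside an exon of a protein-coding gene. They came from ATAC-seq, in which a transposase inserts sequencing adapters into DNA that is open to it, of regulatory T cells in an activated state. These are T cells that depend on the transcription factor Foxp3 and hold immune responses in check. A region was an interval merged from overlapping peaks of the list thresholded by irreproducible discovery rate (IDR), a measure of how well 2 inputs rank the same peaks, and its summit was that of the peak with the highest signal value. A member had its summit over 1000 bp from every transcription start site (TSS) of a protein-coding gene and within a coding exon, 5' UTR or 3' UTR of such a gene in GENCODE M21 on the mouse build mm10. The rule found 498 of 26090 regions, which is 3.31% of the 15068 regions with a distal summit (Wilson 95% interval 3.03 to 3.60%). Of these, 265 lay in 3' UTRs, 141 in internal coding exons, 69 in last coding exons, 16 in 5' UTRs and 7 in the first or only coding exon of their transcript. They fell in 473 host genes. Distal introns held 7260 regions and distal intergenic sequence held 7310.

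The labels give 1 group of primary cells from mice of 1 genotype, Foxp3CreERT2 with Rosa26YFP, which were male and 4 months old, and trace the cells to bone marrow hematopoietic cells. Foxp3CreERT2 places a Cre recombinase that tamoxifen activates under the control of Foxp3, and Rosa26YFP is a fluorescent reporter at the Rosa26 locus. The 2 libraries are technical replicates 1 and 2 of biological replicate 1, and the labels name no control group or mode of activation. The peak lists describe both libraries together, so no value has an error between animals, and every comparison is between parts of the genome within these cells. Intervals for shares (Wilson), densities (Poisson) and medians (order statistics) are at 95% and cover counting error only, and none of them is a test. As a check of the label, a region lay within 1000 bp of a TSS of 5 of 6 T cell markers (Cd4 had none) and 5 of 6 regulatory T cell markers (Tnfrsf18 had none). The same held for 1 of 4 B cell markers (Pax5), 0 of 4 myeloid, 0 of 3 NK cell and 1 of 3 erythroid markers (Klf1). Of all protein-coding genes, 49.1% had such a region, so counts from 3 to 6 genes per cell type are only a weak check.

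Exons are read mainly as protein code or as untranslated message, yet their DNA is also packed into chromatin and can be bound by transcription factors. Coding bases bound by a factor have been called duons, and some exons act as enhancers of their own or of neighbouring genes. CTCF is a zinc finger protein that binds a long motif and helps to set the ends of chromatin loops. ETS, RUNX and AP-1 factors bind many enhancers of T cells, the last mostly after activation. CpG-rich sequence is kept from DNA methylation at many promoters and at some sites inside genes.

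The sequences below were chosen because they show what the summit windows of exonic regions held: strong regions with a match to each of the 4 motifs that recur below, read from the mm10 genome. Each is 30 bases long, runs 5′ to 3′ on the strand of the motif, and has the match in capitals. The first set has the CTCF motif, which the internal exon region of Epg5 (signal 22.98), not printed here, also held.
Kcnj10: ttcctggggCCACTAGGGGGCggctctctg
Zscan10: cggtgtgaaCCAGCAGGTGGCgcagcaagt
Skap2: cctaagtggCCAGCAGATGGCagcagcttg
Synpo2l: ttcatgcagCCACTAGGGGGCaggagttac
Gpr153: tgcgtacggCCACCAGGGGGCgttgggacc
Spred1: taaagccatCCAGCAGGTGGCactgcagct
Ap1g1: cgtagagctCCAGCAGAGGGCagtagagta

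The Kcnj10 match lay at chr1:172368964-172368993 on the minus strand, 33 bp from the summit, in the last coding exon of a potassium channel gene. The matches in Zscan10 (chr17:23610704-23610733), Synpo2l (chr14:20661153-20661182) and Gpr153 (chr4:152283370-152283399) also lay in last coding exons. The match in Ap1g1, which encodes a subunit of a vesicle adaptor complex, lay in internal coding exon 18 of 24 (chr8:109853584-109853613). Those in Skap2 (chr6:51858059-51858088), a signalling adaptor of immune cells, and Spred1 (chr2:117180694-117180723), an inhibitor of Ras signalling, lay in 3' UTRs.

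The second set has the ETS motif, ACNGGAAGT.
Kansl1: gcacagagagACAGGAAGTccagcctctcc
Dpp4: agattgggaacACTGGAAGTtgaagatcaa
Sult2b1: taggtgataaACAGGAAGTtctcttggttc
Hunk: tttcttgttcaACAGGAAGTagatggccag
Zkscan7: tccaggaggtACCGGAAGTgatgctctcat
Ssbp2: ggcagttcacACAGGAAGTccatttccccc

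The matches in Kansl1 (chr11:104425214-104425243), Dpp4 (chr2:62352136-62352165), Sult2b1 (chr7:45733635-45733664) and Hunk (chr16:90475932-90475961) lay in windows centred on internal coding exons. The printed stretch of Zkscan7 (chr9:122886790-122886819) lay at a 5' UTR and that of Ssbp2 (chr13:91702540-91702569) at a 3' UTR.

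The third set has the RUNX motif, AACCACA, and the fourth, from Dgkh on, the AP-1 motif, TGACTCA.
Sgtb: agcagctgagaAACCACAtccggagcagat
Ncbp1: gactgccgacaAACCACAtccacaggaaga
Raph1: tggaggctaattAACCACAgttaccttggt
Il6st: caagccaccagAACCACAtcagaagttttt
Dgkh: cttgttgtgggTGACTCAactgttgaacaa
Ssbp2: ctttataaagtaTGACTCAtatactgtcct
Atg14: cctggcttctgtTGACTCAcactgtggttg
Pik3ca: ctcaccttgtacTGACTCAgagggtacttt
Ikzf2: actctgaacttcTGACTCAttaaatcttaa

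Sgtb (chr13:104139790-104139819) is a last coding exon, Ncbp1 (chr4:46152055-46152084) and Pik3ca (chr3:32438043-32438072) are internal coding exons, and the others are 3' UTRs. Il6st and Ikzf2 stand here as members of the T cell gene lists and Pik3ca as a coding exon with the AP-1 motif, and stronger regions with these motifs are not printed. The Il6st window, in the gene of the signal-transducing subunit of the IL-6 receptor, was at chr13:112507924-112507953. The Ikzf2 window, in the gene of the Helios transcription factor of regulatory T cells, was at chr1:69533159-69533188.

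Signal values differed little between the exonic classes. The signal is the peak caller's own enrichment value, with no stated reference level. Its median was 12.5 in internal coding exons (interval 11.5 to 14.1), 12.5 in last coding exons (11.2 to 14.6), 11.9 in 5' UTRs (8.30 to 19.5) and 12.2 in 3' UTRs (11.7 to 12.9). Distal introns had a median of 12.1 (11.9 to 12.2) and distal intergenic regions one of 13.1 (12.9 to 13.2), while promoter regions reached 15.4 (15.2 to 15.5). The member intervals thus spanned the intronic median, and those of the 3 large exonic classes ended below the promoter median. Single members ranged from 2.77 to 29.7, and 51 of 498 had a signal of 20 or more. The share at that limit was not computed for other regions. The upper quartile of the signal was 16.25 in members and 16.46 in all distal regions. It was 15.79 in distal introns, 17.11 in distal intergenic regions and 19.77 in promoter regions.

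**Figure D1:**
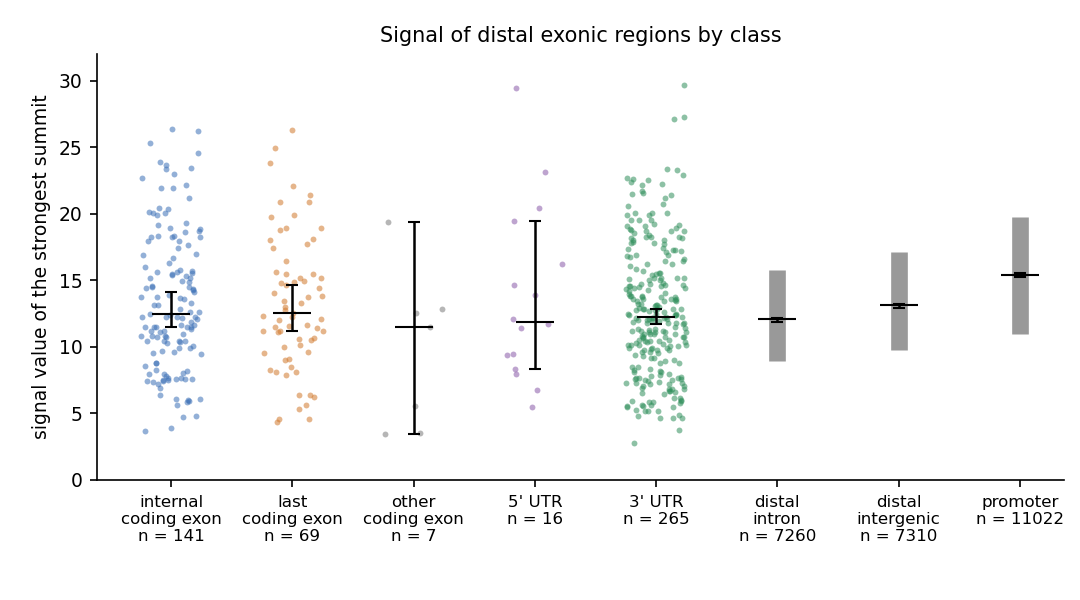
Signal value of the strongest summit (vertical axis) of each region, by class. Points are the 498 members, horizontal ticks are medians with 95% order-statistic intervals, and grey bars are the quartile ranges of the non-exonic and promoter classes. The points of internal exons, last exons and 3' UTRs overlap over nearly their whole range, around medians of 12.5, 12.5 and 12.2.

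How firmly the 2 inputs placed a peak differed somewhat by class. A global IDR of 0.01 or below was reached by 66.7% of internal exon regions (58.5 to 73.9%), 73.9% of last exon regions (62.5 to 82.8%), 15 of 16 5' UTR regions and 62.6% of 3' UTR regions (56.7 to 68.2%). The same was true of 67.5% of distal regions and 76.2% of all regions. Internal exons, last exons and 3' UTRs therefore lay near the distal background. The ranking values of the 2 inputs lay within 2-fold of each other for 488 of 498 members (97.99%), and so they did for 97.97% of distal regions. All 498 members overlapped a region of the pseudoreplicated list, as did 99.8% of all regions.

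Internal coding exons are short, and the regions centred on them mostly were not confined to the exon. The median exon measured 186 bp (quartiles 126 and 309 bp) against a median region width of 576 bp, and the exon was shorter than the region in 119 of 141 cases (84.4%). The median share of the region that was exonic was 40.2% (33.0 to 47.0%), and 17 regions (12.1%) were exonic throughout. In last coding exons the median exonic share was 91.2%, and in 3' UTRs it was 100%, with 79.6% of 265 regions wholly exonic (74.4 to 84.0%). A further 569 distal regions overlapped an exon but had their summit outside it, 530 of them in an intron.

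**Figure D2:**
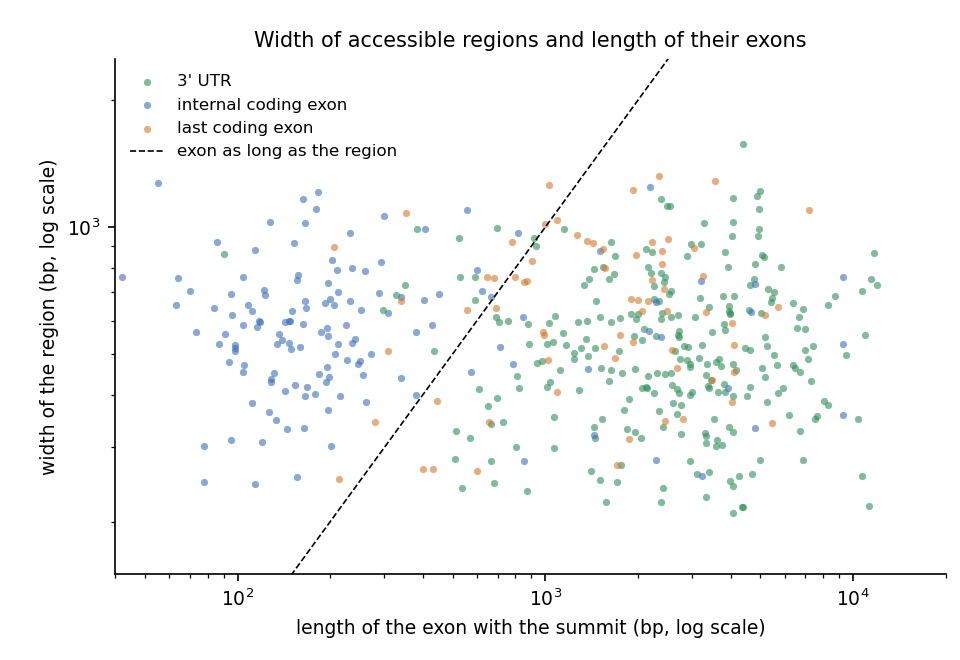
Length of the exon that holds the summit (horizontal, log scale) against the width of the region (vertical, log scale), 1 point per region in internal coding exons, last coding exons and 3' UTRs. Most internal exons lie left of the dashed line, where the region is longer than the exon, and most 3' UTR exons lie right of it.

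Exonic sequence held about as many regions per base as intronic sequence. Per Mb of sequence over 1000 bp from a TSS, members numbered 8.60 (7.86 to 9.39) against 8.06 in introns (7.88 to 8.25) and 4.59 in intergenic sequence (4.49 to 4.70). Internal coding exons had 7.37 (6.21 to 8.70), 3' UTRs 8.39 (7.41 to 9.46), last coding exons 12.1 (9.43 to 15.3) and 5' UTRs 17.8 (10.2 to 28.9). Only the intervals of last exons and 5' UTRs lay above the intronic value.

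Exons lie nearer to TSSs than most introns do, so densities were also set side by side at like distances. Between 1001 and 2500 bp from a TSS, internal exons had 8.17 regions per Mb (5.47 to 11.7) and 3' UTRs 6.43 (4.37 to 9.13), against 13.4 in introns (12.6 to 14.2). The exonic intervals there ended below the intronic one. Last coding exons had 16.95 in that bin (10.05 to 26.8) and 18.5 between 2501 and 5000 bp (11.7 to 27.8), against 11.1 in introns in the latter bin (10.4 to 11.75). Internal exons had 6.91 there (4.47 to 10.2) and 3' UTRs 8.23 (6.15 to 10.8). From 5001 to 10000 bp, internal exons (10.8), 3' UTRs (10.3) and introns (10.95) had nearly the same density. From 10001 to 25000 bp, internal exons had 6.66 (4.49 to 9.51) and last exons 4.55 (1.67 to 9.90, from 6 regions), against 10.2 in introns, and the interval of 3' UTRs (9.27, 7.23 to 11.7) spanned the intronic value. Beyond 100000 bp the order was the opposite for 3' UTRs, which had 6.95 (2.79 to 14.3, from 7 regions). Introns had 1.60 there (1.39 to 1.82) and coding exons 1.49 (0.0377 to 8.30, from 1 region). All members together, most of them in 3' UTRs, had 4.73 in this bin (2.04 to 9.32, from 8).

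**Figure D3:**
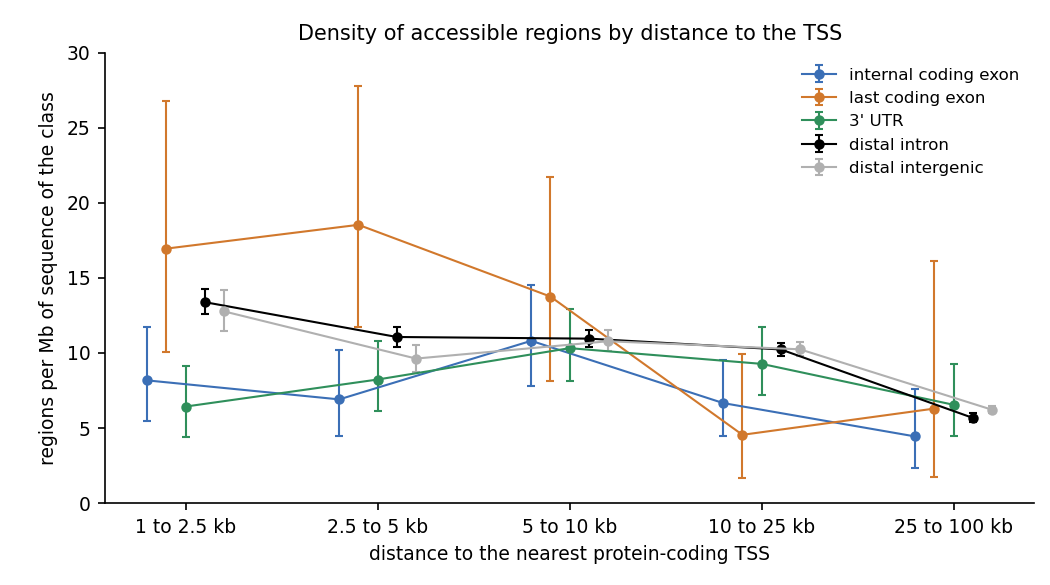
Regions per Mb of sequence of each class (vertical) in 5 bins of distance to the nearest protein-coding TSS (horizontal), with 95% Poisson intervals. Internal exons and 3' UTRs start at 8.17 and 6.43 in the nearest bin, below introns at 13.4, and last exons start at 16.95.

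Last coding exons stood out by their sequence. A window was called CpG-rich where the 201 bp around the summit had over 50% GC and an observed to expected CpG ratio over 0.6. This held for 43 of 69 last exon regions (62.3%, 50.5 to 72.8%), 30 of 141 internal exon regions (21.3%, 15.3 to 28.7%), all 7 regions in first or only coding exons, 6 of 16 in 5' UTRs and 14 of 265 in 3' UTRs (5.28%, 3.17 to 8.67%). The background was 6.91% of distal regions, and introns had 3.15% (2.78 to 3.58%). The median CpG ratio was 0.702 in last exon regions, 0.418 in internal exon regions and 0.288 in 3' UTR regions. Exons without a region were poorer in CpG: 9.89% of windows on a grid over unoccupied last exons were CpG-rich (9.36 to 10.5%), 4.86% in internal exons and 0.749% in 3' UTRs.

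The densities differed mainly by this split and less by class. Per Mb outside regions, as estimated from the grid, CpG-rich windows held 76.6 regions in last exons (55.5 to 103), 32.6 in internal exons (22.0 to 46.6), 59.6 in 3' UTRs (32.6 to 100), 66.4 in introns (58.1 to 75.6) and 84.6 in intergenic sequence (78.5 to 91.01). The interval of internal exons alone, among these 5, ended below the intronic one. All other windows held 5.09 in last exons (3.32 to 7.45), 6.16 in internal exons (5.07 to 7.42), 8.06 in 3' UTRs (7.09 to 9.12) and 7.89 in introns (7.70 to 8.07). Intergenic sequence had 4.18 in such windows (4.08 to 4.29). Outside CpG-rich windows, last and internal coding exons thus lay below introns, and 3' UTRs spanned the intronic value. The interval of internal exons lay above the intergenic one, and that of last exons spanned it.

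**Figure D4:**
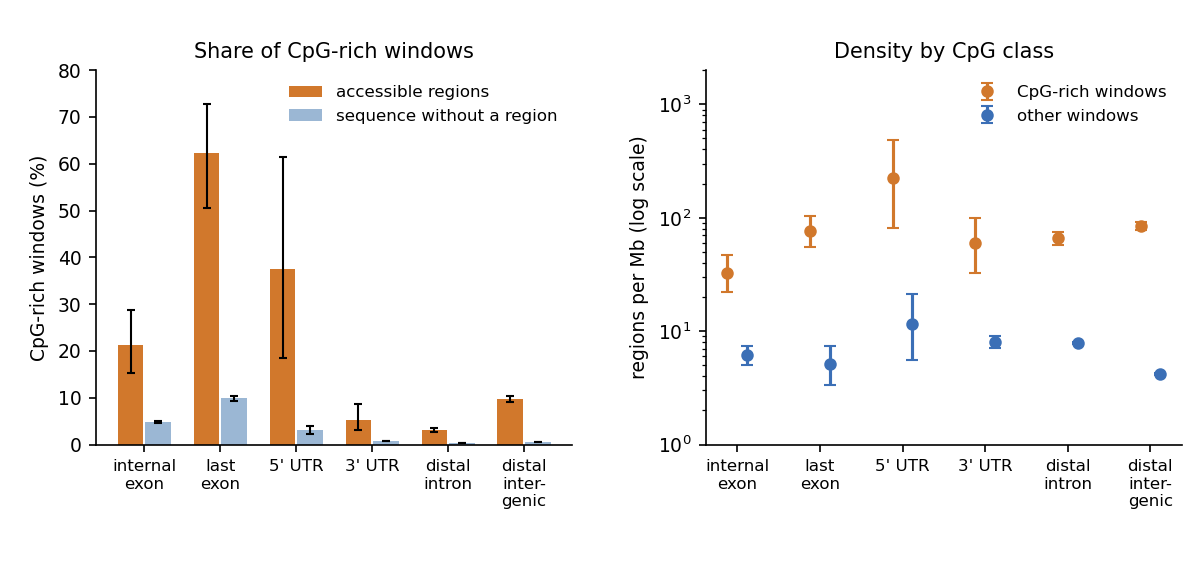
Left, percentage of 201 bp windows that were CpG-rich at region summits (orange) and on a grid over sequence of the same class without a region (blue), with 95% Wilson intervals. Right, regions per Mb (log scale) in CpG-rich and other windows with 95% Poisson intervals. Last exons reach 62.3% against 9.89% at left, and the 2 kinds of window separate every class at right.

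CpG-rich regions of coding exons were wider and had more summits than the rest. Their median width was 669 bp (632 to 759) against 553 bp (514 to 592), and 61.25% against 38.0% had more than 1 summit. More than 1 summit was found in 38% of distal regions. The split was not particular to coding exons. Intergenic regions had 670.5 against 536.5 bp, and 60.8% against 37.9% with more than 1 summit. Introns had 560 against 510 bp, and 49.3% against 34.9%. The signal of CpG-rich and other coding exon regions was alike, with medians of 12.7 (11.9 to 14.5) and 12.3 (11.4 to 14.05). Host genes of CpG-rich coding exon regions had a region at one of their own TSSs in 38 of 80 cases (47.5%, 36.9 to 58.3%). For other coding exon regions this held in 97 of 137 (70.8%, 62.7 to 77.8%).

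Examples of the 43 CpG-rich last exons are given here as values only. They include Neurog2 and Nkx2-2, transcription factors of neural development (signal 12.1 and 10.2), Crh, the hypothalamic stress hormone (14.97), Fgf23, a phosphate hormone from bone (13.7), and Gdf15, a stress cytokine (10.6). Pomc, the precursor of ACTH, had the highest signal of these (21.4). Crh, Fgf23, Gdf15, Nkx2-2 and Pomc had no region within 1000 bp of a TSS of their own. The region of Neurog2 itself reached its promoter, with a summit 1126 bp from the TSS. Others were Ltb, which encodes lymphotoxin beta (4.61), and Ccr10, a chemokine receptor (13.3). These genes were chosen after their values were seen.

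The strongest regions in internal coding exons lay in genes of varied function. Capn2, a subunit of the calcium-dependent protease calpain, had the highest signal (26.4) at chr1:182489773-182490415, centred on exon 6 of 21, an exon of 84 bp. No region lay at a TSS of Capn2, but the start of the antisense gene Gm37885 was 41 bp from the summit. Kansl1, a scaffold of a histone acetyltransferase complex, had 26.2 in exon 2 of 14 (chr11:104425002-104425462), and its promoter region had 28.9. Dpp4, the CD26 peptidase on the surface of T cells, had 25.3 in exon 20 of 26 (chr2:62352030-62352495), above the 7.74 of its promoter region. Sult2b1, a cholesterol sulfotransferase, followed with 24.6 (chr7:45733297-45733991), then Kif20a, a kinesin of cell division, with 23.9. Enpp1, an ectoenzyme that cleaves extracellular nucleotides, had 23.6 in exon 20 of 25 (chr10:24650911-24651827). The kinase gene Hunk had 23.4 (chr16:90475599-90476187), and Tfap2a, a transcription factor of neural crest and skin, had 23.3 (chr13:40722513-40723482). Neither Hunk nor Tfap2a had a region at a TSS.

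In last coding exons the highest signal was 26.3 in Inhbe, an inhibin subunit gene (chr10:127350508-127351176). Rab6b, a GTPase of Golgi traffic, had 24.9, with a summit 56 bp before the stop codon and 69380 bp from the nearest TSS of its own (chr9:103180876-103181399). Sgtb, a co-chaperone, had 23.8, with the summit 40 bp before the stop codon (chr13:104139462-104140132). The next were Kcnj10 (22.1, chr1:172368664-172369282), Pomc (21.4, chr12:3959684-3960442) and Spata31d1d, a gene of the testis-linked Spata31 family (20.9, chr13:59728435-59728868). The zinc finger genes Zfp51 (20.9, chr17:21463308-21464054) and Zscan10 (19.9, chr17:23610301-23610854) completed the 8 strongest. Of these 8, Sgtb, Kcnj10 and Zfp51 had a region at a TSS. The median last exon summit lay 205 bp before the stop codon (126 to 317).

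Regions in 3' UTRs had their summits a median of 1027 bp after the stop codon (853 to 1283) and 921 bp before the end of the transcript (779 to 1132). Of the 265, 84 lay within 500 bp of the transcript end (31.7%, 26.4 to 37.5%). The strongest was 29.7 in Rdh13, a retinol dehydrogenase (chr7:4427203-4427617), whose window held no CpG at all. Habp2, a plasma protease, had 27.3 (chr19:56320153-56320694), and Lars2, the mitochondrial leucyl-tRNA synthetase, had 27.1 (chr9:123461729-123462252). The Lars2 window had a copy elsewhere in the genome at 96.2% identity, so its reads may not be unique. Then came Dirc2 (23.3, chr16:35695990-35696637), St3gal2, a sialyltransferase (23.3, chr8:110969969-110970747), and Ticam1, the TRIF adaptor of Toll-like receptors (22.9, chr17:56269118-56269636). Ckm, muscle creatine kinase, had 22.7 (chr7:19420875-19421794), and Coa5, a factor for cytochrome oxidase assembly, 22.6 (chr1:37419442-37419791). The Ckm summit was 26 bp from the start of the antisense gene A930016O22Rik, and its promoter region had a signal of 8.84.

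Many 3' UTR regions were nearer to the TSS of another gene than to one of their host. The host was the gene of the nearest TSS for 160 of 265 (60.4%, 54.4 to 66.1%). The same held for 125 of 141 internal exon regions (88.7%, 82.4 to 92.9%), and the intervals do not overlap. No such share was computed for 3' UTR or internal exon sequence without a region. Whether the difference goes beyond where these classes lie within a gene was therefore not tested. Both regions in the 3' UTR of Trim71, an RNA-binding ubiquitin ligase of stem cells, were nearest to Ccr4, a chemokine receptor of regulatory T cells, at 5064 and 2674 bp. They had signals of 13.8 and 6.85, and the nearest TSS of Trim71 itself was 54389 and 56779 bp away. Both regions in the 3' UTR of Bysl, a ribosome assembly factor, were nearest to Ccnd3, the cyclin D3 gene, with signals of 9.59 and 4.68. The 3' UTR region of Braf, a kinase downstream of Ras, had 21.7 at 5289 bp from the TSS of Ndufb2.

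The 5' UTR class was small and lay largely within 1000 bp of mRNA starts that RefSeq lists and GENCODE M21 does not place that near. The RefSeq starts counted here are those of curated and predicted transcripts together. A RefSeq mRNA start lay within 1000 bp of the summit in 10 of 16 (62.5%, 38.6 to 81.5%), against 21 of all 498 members (4.22%). Sf3b5, a splicing factor subunit, had the highest value (29.4, chr10:13008107-13008878), 86 bp from a RefSeq start. Zkscan7 had 23.1 (chr9:122886509-122887262) at 4 bp from one, and this region reached within 1000 bp of a GENCODE TSS. Nup160, a nuclear pore subunit, had 20.4 (chr2:90678834-90679880) at 1850 bp, and Ethe1, a mitochondrial enzyme of sulfide breakdown, had 19.5 (chr7:24593651-24594082) at 96 bp. Whether these are promoters was not tested.

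Starts of noncoding genes were also near some members. A noncoding start lay within 1000 bp of 31 summits (6.22%, 4.42 to 8.70%), close to the distal background of 6.88%. Of the 31, 20 were antisense genes and 4 miRNA genes, 24 ran opposite to the host, and 12 were within 200 bp. Exonic sequence within 1000 bp of such a start held 23.7 regions per Mb (16.1 to 33.7) against 8.25 elsewhere (7.52 to 9.03), a ratio of 2.87. The ratio was 1.93 in introns and 3.995 in intergenic sequence. Examples within 50 bp were Capn2, Ckm, Nos3, the endothelial nitric oxide synthase (18 bp, signal 12.3), Tfap2a (45 bp) and Dnaaf3, a dynein assembly factor (38 bp, 22.2).

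Motifs were sought on both strands in the 201 bp around each summit. The CTCF motif was present in 39 of 498 members (7.83%, 5.78 to 10.5%), against 0.201% of windows of the same length 1000 bp away, 0.144% of unoccupied exonic windows, 6.33% of other distal regions and 4.28% of all regions. By class it was found in 8 of 69 last exon regions (11.6%, 5.99 to 21.2%), 25 of 265 in 3' UTRs (9.43%, 6.47 to 13.6%) and 6 of 141 in internal exons (4.26%, 1.96 to 8.97%). Introns had 5.25% (4.76 to 5.79%) and intergenic regions 7.41% (6.84 to 8.04%). The interval of 3' UTRs lay above that of introns. In 26 of the 39 the motif centre was within 25 bp of the summit, with a median of 19 bp. The motif ran in the direction of the host gene in 16 of 39. No CTCF match overlapped a match to another of the 16 motifs searched.

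The ETS motif was present in 44 members (8.84%, 6.65 to 11.7%), against 0.602% of flanks, 7.13% of other distal regions and 6.02% of all regions. It was found in 27 of 265 3' UTR regions (10.2%, 7.10 to 14.4%), 10 of 141 in internal exons (7.09%), 4 of 69 in last exons (5.80%) and 3 of 16 in 5' UTRs. In 1 member the match overlapped a Forkhead match. Among 3' UTRs with this motif, Ifit3 and Ifit3b, antiviral genes induced by interferon, have nearly identical windows (95.5 and 96.0% identity to their copies) and signals of 10.3 and 8.52. They cannot be counted as separate evidence.

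The RUNX motif was present in 52 members (10.4%, 8.05 to 13.4%), against 5.22% of flanks, 13.95% of other distal regions and 9.49% of all regions. The share was 12.8% in 3' UTRs (9.33 to 17.4%), 8.51% in internal exons and 7.25% in last exons, and that of introns was 14.4%. In 1 member the match overlapped an IRF match.

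The AP-1 motif was present in 24 members (4.82%, 3.26 to 7.07%), against 3.41% of flanks (2.14 to 5.40%), 11.3% of other distal regions (10.8 to 11.9%) and 7.65% of all regions. By class the share was 6.04% in 3' UTRs (3.75 to 9.58%), 4.96% in internal exons (2.43 to 9.89%) and 1.45% in last exons, where 1 of 69 had it. The interval of each of these 3 classes ended below the lower bound of introns, which had 11.2% (10.5 to 11.9%). No AP-1 match overlapped another motif. The internal exon region of Baz2b, a bromodomain gene, held 3 AP-1 matches within its exon window (signal 14.8, chr2:59969139-59969441). This gene was chosen after its values were seen.

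At least 1 of the 4 motifs was present in 29.3% of members (25.5 to 33.5%), against 35.0% of other distal regions (34.2 to 35.8%). Coding exons had 23.5% (18.4 to 29.6%) and 3' UTRs 34.3% (28.9 to 40.2%), and promoters 11.7%. Coding exon regions thus lay between promoter and other distal regions, and 3' UTR regions spanned the value of the other distal regions. CpG-rich members had any of the 4 motifs in 13% and the rest in 33.4%. These shares were 11.25% and 30.7% in coding exons, 17.9% and 35.0% in introns, and 17.4% and 37.5% in intergenic regions. The lower share in CpG-rich windows was thus not particular to exons. Such windows made up 36.9% of coding exon regions and 6.46% of other distal regions. The KLF/SP motif GGGGCGGG, a mark of GC-rich promoters, was present in 5 of 69 last exon regions (7.25%, 3.13 to 15.9%). It was present in 7 of 141 internal exon regions (4.96%, 2.43 to 9.89%) and 7 of 265 in 3' UTRs (2.64%, 1.29 to 5.35%). Other distal regions had it in 3.15% (2.88 to 3.45%), promoter regions in 25.1% and all regions in 12.4%. Signal did not separate members with a motif from those without. The median was 13.1 with the CTCF motif and 12.3 without, 12.9 and 12.3 for ETS, 12.2 and 12.3 for RUNX, and 12.3 and 12.3 for AP-1.

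**Figure D5:**
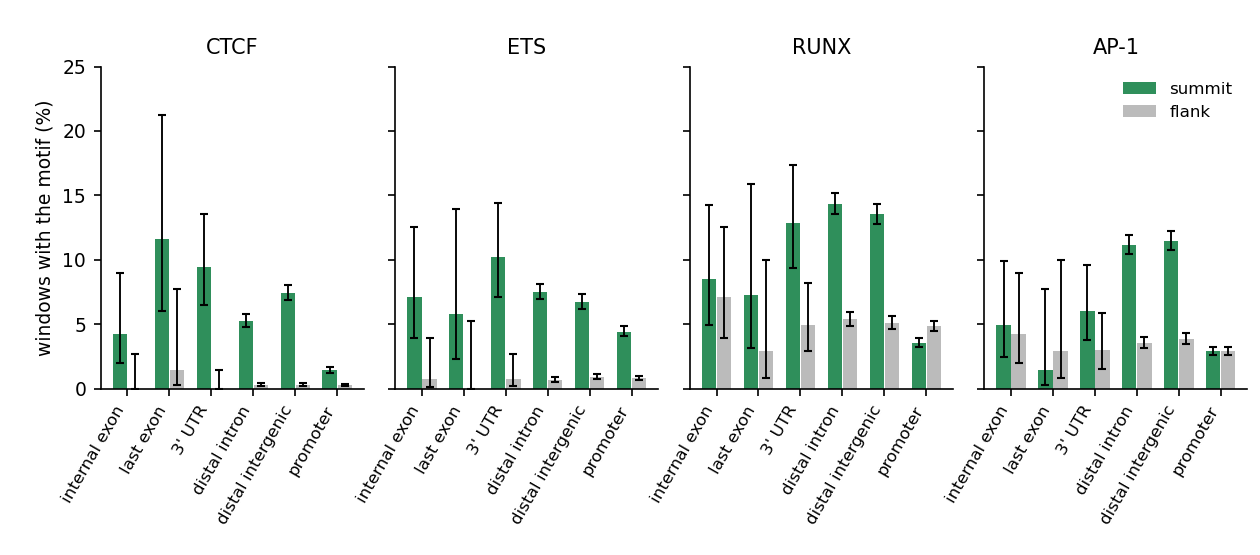
Percentage of 201 bp windows with a match (vertical) at summits (green) and in windows 1000 bp away (grey), by class, with 95% Wilson intervals, for CTCF, ETS, RUNX and AP-1. CTCF reaches 11.6% in last exons and 9.43% in 3' UTRs, and AP-1 falls from 11.2% in introns to 1.45% in last exons.

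Few genes held several members. Of 473 hosts, 21 had 2 or more, led by Enpp1 with 5 and Cmya5, a muscle gene, with 3. In Enpp1 the internal exon region had a signal of 23.6, and the 4 regions in the 3' UTR had 7.18, 5.87, 5.18 and 5.15. The internal exon region was thus the strongest by over 3-fold. All 3 Cmya5 regions lay in 1 exon of 9310 bp, with signals of 9.69, 6.35 and 5.66, and within 1000 bp of the start of the antisense gene A630019I02Rik. Cmya5 had no region at a TSS. Dpp4 had a 3' UTR region (10.4) beside the stronger one in exon 20. Rtkn2 had 2 internal exon regions with signals of 10.8 (chr10:68039626-68040279) and 5.99 (chr10:68035779-68036945), the latter with the AP-1 motif. The remaining 17 genes had 2 each, with signals from 3.71 in Crybg1, a crystallin-like gene, to 18.3 in Gne, the key enzyme of sialic acid synthesis. Regions of 1 gene share its chromatin context and are not independent.

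Genes of the T cell lists held few members in number. Of 30 regulatory T cell genes, 1 was a host (3.33%), and of all 21938 protein-coding genes 473 were (2.16%). The counts were 3 of 24 pan-T cell genes (12.5%), 2 of 25 naive and homing genes (8%), 2 of 36 T cell receptor and costimulation genes (5.56%), 2 of 29 cytokine and STAT genes (6.90%), 1 of 48 T cell transcription factors (2.08%) and 2 of 38 chromatin regulators (5.26%). There was 1 of 18 housekeeping genes (Tbp, 5.56%), 2 of 12 neuron and muscle genes (Ckm and Ttn, 16.7%), and 0 of 10 B cell, 0 of 12 myeloid and 0 of 10 liver and epithelium genes. With counts this small, the lists cannot be ranked.

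Among receptors and surface proteins, Il6ra, the IL-6 receptor subunit, had 4.33 in its last coding exon (chr3:89870885-89871515) and 10.7 in its 3' UTR (chr3:89864058-89864488), against 11.96 at its promoter. Il6st, its signalling partner, had 13.5 in its 3' UTR (chr13:112507676-112508145), against 13.8 at its promoter. S1pr1, the receptor that guides exit from lymph nodes, had 6.26 in its last coding exon (chr3:115711936-115712397), and Ccr7, the receptor for lymph node entry, had 6.82 in its 3' UTR (chr11:99144496-99144826). Cd3d, a subunit of the T cell receptor complex, had 5.63 in its 3' UTR (chr9:44987100-44987398), where its promoter region had 14.9. All 5 of these receptor genes thus had a promoter region with a higher signal than their exonic regions, by a small margin in Il6st and in S1pr1 (6.58 at the promoter).

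Among signalling proteins, Skap1, an adaptor for T cell adhesion, had 11.1 in its 3' UTR (chr11:96582068-96582318) with no region at a TSS. Bcl10, an adaptor of NF-kB activation, had 5.96 in its 3' UTR (chr3:145933888-145934151), against 17.3 at its promoter. Among nuclear proteins, Ikzf2 had 6.60 (chr1:69537642-69538293) and 5.77 (chr1:69533019-69533396) in its 3' UTR, 146331 and 150906 bp from its TSS, against 6.57 at its promoter. Jun, an AP-1 subunit, had 3.43 in its only coding exon (chr4:95050284-95050880), 1480 bp from the TSS. The histone deacetylase gene Hdac4 had 14.4 in exon 10 of 27 (chr1:91984361-91984960), and Kdm6b, a histone H3 demethylase, had 9.36 in a 5' UTR (chr11:69408548-69409070), 909 bp from a RefSeq start.

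Host genes had a region at a TSS more often than protein-coding genes at large. This held for 319 of 473 hosts (67.4%, 63.1 to 71.5%), against 49.1% of all protein-coding genes (48.4 to 49.8%). Leaving out the member itself, the host of 72.5% of 3' UTR regions (66.8 to 77.5%), 65.2% of internal exon regions (57.1 to 72.6%) and 47.8% of last exon regions (36.5 to 59.4%) had another region at a TSS. The interval of last exons spanned the value of all genes. Of the 337 members whose host had a region at a TSS, the member itself included, 122 had a higher signal than the host's promoter region. For 327 of the 337 the host had another region at a TSS. A member that was itself the strongest region there could not be among the 122.

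Few members had a copy of their window elsewhere in the genome, and windows of other regions were not searched. A copy at 95% identity over 90% of the window was found for 17 members (3.41%, 2.14 to 5.40%), of which 15 were in 3' UTRs. They included the pair Rnaset2a and Rnaset2b, ribonuclease genes, at 100% identity with signals of 18 and 15.4, and Vmn2r97 and Vmn2r95, vomeronasal receptor genes, with 15.1 and 13.2. Reads of such windows may not be unique, and their treatment by the authors is not stated in the labels or file notes. No window aligned to the mitochondrial genome. Across the 498 regions, signal went with width only loosely (Pearson 0.257, Spearman 0.337) and hardly with GC (0.0359 and 0.0196). These are descriptions within 1 list and carry no p.

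Exonic regions lay on both sides of the distance limit of 1000 bp. The 13 with a summit 900 to 1000 bp from a TSS, just outside the rule, had a median signal of 7.89 (lowest 3.12, highest 24.6). The 8 at 1001 to 1100 bp, just inside, had 11.7 (lowest 7.43, highest 19.4). Of the members, 20 reached within 1000 bp of a TSS with their edge (4.02%).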

How the data were processed

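ATAC-seq peak lists of 2 technical replicates of 1 biological replicate were analysed. Per the files' accompanying notes, all 3 lists (pseudoreplicated, IDR ranked and IDR thresholded, mm10) derive from 1 alignment. No aligner, peak caller, filter or shift of read positions is named in the labels or file notes, and the sequencing depth is unknown. The deposited signal is the caller's enrichment value per peak. The deposited −log10 columns hold the caller's p-value and q-value per peak, both IDR values (local, global) and what each of the 2 inputs was ranked by. The deposited score, up to 1000, follows from the global IDR and is at an IDR of 0.05 or below in the thresholded list. These are the authors' own values, used to describe, rank and filter peaks.

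Peaks overlapping by 1 bp were merged. Summits were placed in GENCODE M21 in the order 5' UTR, coding exon, 3' UTR over all coding transcripts. Exon position came from 1 reference transcript per summit (APPRIS principal, then CCDS, basic, longest coding sequence). RefSeq mRNA starts on the same assembly, of curated and predicted transcripts together, were used as a check. Sequences came from the mm10 reference. Flanks were windows centred 1000 bp downstream on the reference strand, and unoccupied windows lay on a grid of 500 bp (10000 bp for introns and intergenic sequence). The 16 motifs included ETS, RUNX, AP-1, CTCF and KLF/SP. Copies were sought with blastn 2.17.0. Other work used Python 3.11.15, numpy 2.4.6, scipy 1.17.1 and pysam 0.24.0. The placement, merging, motif search and median intervals were tested on simulated data.

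There is 1 group and no replicate, so no test was made. Named were the 8 strongest regions in internal exons, last exons and 3' UTRs, the 4 strongest in 5' UTRs, genes with several members (in part), T cell list genes, and motif matches shown as sequence. A result under this rule is not reported here. The members, lists and rules were chosen with earlier results of these data known.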

Additional observations from a re-analysis of the deposited data

How the results depend on the processing

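No paired analysis was possible because the lists pool both libraries, and for the same reason no replicate could be left out in turn. Of the values recomputed, 167 moved by less than their interval or 1.5 times and 52 moved further. The motif differences and the counts of copies were among the 167. Only the motif differences could change sign, since the other values cannot be negative, and none of them did. The pseudoreplicated list gave 1278 members: 382 in internal exons (median signal 7.42, 19.975 per Mb), 160 in last exons (8.0045, 28.1), 24 in other coding exons (39.7 per Mb), 26 in 5' UTRs (8.11, 28.9) and 686 in 3' UTRs (7.35, 21.7). Its host genes then numbered 5 regulatory T cell, 4 naive and homing, 6 cytokine and STAT, 7 T cell transcription factor, 7 chromatin and 2 housekeeping genes. Peaks at an IDR of 0.01 or below gave internal exons a median of 15.4 and 4.92 per Mb, last exons 8.96 per Mb, and 3' UTRs 166 regions, 14.4 and 5.25. At an IDR of 0.02 or below the share was 84.4% in internal exons, 87.0% in last exons, 100% in 5' UTRs and 80.4% in 3' UTRs. The background at that limit was 82.4% of distal regions and 87.3% of all regions. With every summit its own item, internal exons had 221 (9.69, 11.6 per Mb), last exons 130 (8.39, 22.8), other coding exons 21 (34.7 per Mb) and 3' UTRs 400 (9.66, 12.7). With at least 50% of the region exonic, 54 internal exon regions were left (2.82 per Mb). A promoter distance of 500 bp gave 21 other coding exon and 38 5' UTR regions, one of 2500 bp gave 0 (0 per Mb) and 6, and starts of protein_coding transcripts alone gave 11 and 29. Without members near a RefSeq start, an alternative chosen after seeing the data, 6 5' UTR regions were left (6.68 per Mb). Beyond these settings' own construction the cause was not tested. The depth is unknown, so weak regions may be missed.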

Other observations

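Members were found on every chromosome but Y. Their share of distal regions was 1.28% on chromosome 12 (10 of 780, 0.698 to 2.34%) and 4.50% on chromosome 17 (30 of 667, 3.17 to 6.35%), where the whole was 3.31%. This difference was not tested.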
